A study of Mus musculus with 57 samples.

Results

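The Notch pathway was followed through 10 genes: the receptors Notch1, Notch2, Notch3 and Notch4, the ligands Dll1, Dll4, Jag1 and Jag2, and the target genes Hes1 and Hey1. The genes were taken by name from the count and TPM tables, in which each of the 10 names matched 1 of 56860 genes, and every one passed the filter on low values in all comparisons. On the GRCm39 build the counts use, Dll1 (ENSMUSG00000014773.14) lies at chr17:15587616-15597134 and Notch4 (ENSMUSG00000015468.15) at chr17:34783242-34807477, on the chromosome that also holds Notch3. Dll4 (ENSMUSG00000027314.7) lies at chr2:119156265-119166443, with Notch1 and Jag1 on the same chromosome. All 10 are protein-coding, and the counts are summed over the exons of each gene. The study compared wild-type (wt) embryos with embryos homozygous for the Hoxa5tm1Rob null allele (Hoxa5-/-), both kept on the 129/Sv background, by bulk RNA-seq of poly(A) RNA in 7 biological contexts. In the mutant allele, carried by every cell, a neomycin cassette interrupts the homeobox, so the gene is disrupted and not removed, and Hoxa5 reads were still counted in the mutants (group means of 9.30 to 52.9 CPM, counts relative to the library total with TMM scaling). Trachea at E15.5, lung at E12.5 and E15.5 and diaphragm at E15.5 gave 32 libraries, 4 wt and 4 Hoxa5-/- in each context, read as 100-base single ends at 1 centre. The brown fat between the shoulder blades (iBAT, at E18.5) and somites of 2 stages, E10.5 and E12.5, gave 25 libraries, read as 150-base paired ends at another centre. The earlier somites were represented by 4 wt and 3 mutant libraries, the later ones by 4 and 4, and iBAT by 5 and 5. Somite samples spanned the C3 to T2 levels, with the neural tube taken off. Each library is a whole dissected tissue and therefore a mixture of cell types.

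Notch receptors are cell-surface proteins that are bound by ligands of the Delta-like and Jagged families on a neighbouring cell. Binding leads to cleavage of the receptor by an ADAM protease and then by the gamma-secretase complex, and the released intracellular domain enters the nucleus, joins the DNA-binding protein RBPJ and a Mastermind coactivator, and turns on repressors of the Hes and Hey families. Fringe glycosyltransferases modify the receptor and alter which ligands activate it. The pathway is known for the segmentation of the presomitic mesoderm, for keeping neural and muscle progenitors undifferentiated, for the choice between airway cell types, for arterial and tip-cell identity in the endothelium (Dll4, Notch4 and Notch1) and for mural cells of vessels (Notch3 and Jag1).

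The libraries held between 18369905 and 72991481 gene counts each, with a median of 26953494. Hoxa5 was lower in the Hoxa5-/- libraries without overlap in every context, with log2 differences from -0.92 in somites at E10.5 to -1.94 in iBAT at E18.5, as the labels say. Marker genes of muscle were high in diaphragm, of brown fat in iBAT and of distal lung epithelium in lung, whereas the presomitic markers Mesp2, Msgn1, Tbx6 and Ripply2 had mean levels of 0 to 1.85 TPM in the wt somite libraries at E10.5. The whole list of 9 presomitic and somite markers, which also holds Meox1, Pax1, Pax3, Uncx and Tbx18, summed to 227 to 312 TPM in wt and 275 to 356 TPM in Hoxa5-/- somites at that stage, the highest of the 7 contexts. Those somite libraries carried neural tube and neuron markers at a summed 838 to 1475 TPM (8 genes). A few libraries stood apart. In Hoxa5-/- lung replicate 4 at E15.5 the 10 most abundant genes held 36.7% of all TPM, against 7.52% to 8.84% in the other 7 libraries of that context. Much of it was ribosomal RNA, with Rn18s-rs5 at 196806 TPM against 4133 to 8515 TPM in the other 7, and Mir6236 at 109720 TPM against 2879 to 6777 TPM. Hoxa5-/- lung replicate 1 at E12.5 had blood markers at a summed 102669 TPM, against 13107 to 25145 TPM in the other 7. In iBAT the 10 most abundant genes held 21.7% to 26.7% of TPM. For some genotype differences in lung, values are given below with and without these libraries. The context differences in Hoxa5-/- libraries and the differences in genotype effect between contexts are given with all libraries included.

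The 4 receptors together were least abundant in wt iBAT and most abundant in wt lung. Their summed level was 50.4 ± 5.81 TPM (SD, n = 5) in iBAT, 294 ± 19.7 TPM in lung at E15.5 and 289 ± 21.8 TPM in lung at E12.5 (SD, n = 4 in each), the last pair differing by less than their spread. TPM levels (reads per exon length, brought to the same total in every library) are per length and can be compared between genes, but the tables of the respiratory tissues and of somites and iBAT were made from different read types, so levels set across them carry that difference too. Within a library the makeup of the receptors does not depend on the scaling between libraries. Notch3, the receptor best known in mural cells, was the most abundant receptor in 6 of the 7 wt contexts and made up 55.7% ± 1.80 (SD, n = 4) of receptor TPM in lung at E12.5. Somites at E12.5 were the exception, where Notch2 made up 42.9% ± 0.928 and Notch3 39.6% ± 0.353 (SD, n = 4). Notch1 reached its highest share in somites at E10.5, where it made up 26.95% ± 0.972 (SD, n = 4), with each library between 25.9% and 28.2%, against 12.1% to 12.8% in somites at E12.5. Notch4, a receptor mainly of endothelium, made up 26.5% ± 1.96 (SD, n = 5) of receptor TPM in iBAT. In the other 6 contexts its mean share was between 4.82% and 9.23%, and no wt library of those contexts reached the lowest iBAT library at 23.9%.

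**Figure D1:**
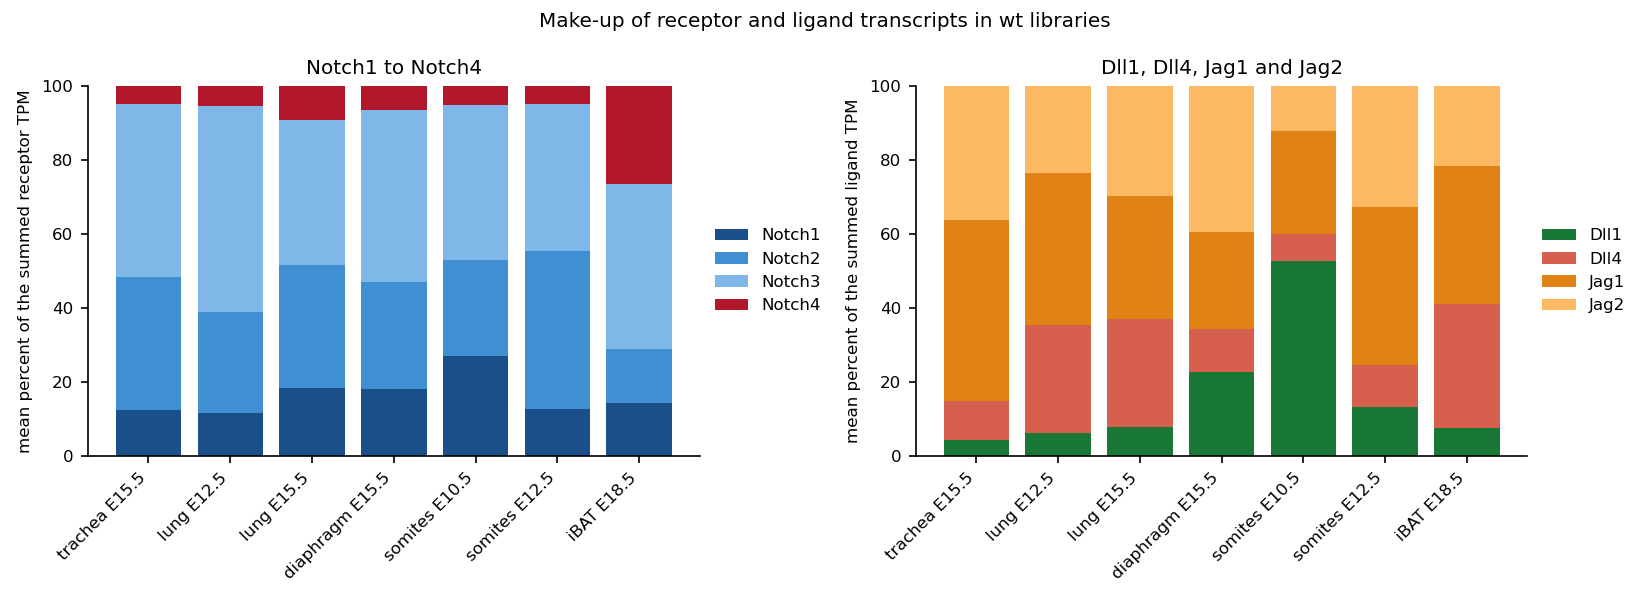
Share of each receptor in the summed TPM of the 4 receptors (left) and of each ligand in the summed TPM of the 4 ligands (right), in percent, as means over the wt libraries of each context, which are given along the axis. Notch3 is the most abundant receptor in all contexts except somites at E12.5, Notch4 is prominent in iBAT, and Dll1 holds 52.6% of ligand TPM in somites at E10.5.

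Among the ligands, Jag1, Jag2 or Dll1 led, depending on the context. Jag1, which is expressed in mesenchyme, mural cells and epithelium, led in wt trachea with 49.1% ± 2.37 of ligand TPM (SD, n = 4) and was also the most abundant ligand in lung at both stages, in somites at E12.5 and in iBAT. Jag2, the other Jagged ligand, led in diaphragm with 39.5% ± 2.59 (SD, n = 4). Dll1, the ligand of presomitic mesoderm and of neural and muscle progenitors, led in somites at E10.5 with 52.6% ± 1.77 (SD, n = 4). Its share in somites at E12.5 was 13.1% ± 1.28 and in diaphragm 22.6% ± 1.26 (SD, n = 4 in each), and in trachea, lung and iBAT its mean share lay between 4.09% and 7.81%. Dll4, the endothelial ligand, held 33.4% ± 4.92 in iBAT (SD, n = 5), 29.3% ± 4.04 in lung at E12.5 and 29.01% ± 1.80 in lung at E15.5 (SD, n = 4 in each), against 7.37% to 11.7% in the other 4 contexts. The summed ligand TPM was 125 ± 7.49 in trachea, 125 ± 15.2 in somites at E10.5 (SD, n = 4 in each) and 41.8 ± 5.82 in iBAT (SD, n = 5).

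The levels of single members ranged over contexts as follows, in mean wt TPM. Notch1 was highest in lung at E15.5 (53.7 ± 2.56) and in somites at E10.5 (49.8 ± 9.94), which overlapped, and lowest in iBAT (7.11 ± 0.661). Notch2 was highest in lung at E15.5 (98.6 ± 13.2) and somites at E12.5 (98.3 ± 11.4), which overlapped, and lowest in iBAT (7.38 ± 1.09). Notch3 was highest in lung at E12.5 (161 ± 13.4), above every library of the other contexts, and lowest in iBAT (22.6 ± 3.19). The 3 receptors thus shared their lowest place, and every iBAT library was below every other wt library for each of them. Notch4 was highest in lung at E15.5 (27.1 ± 1.30), and its other means lay between 9.45 and 15.6, with each neighbour in that order overlapping the next. Dll1 was highest in somites at E10.5 (65.8 ± 9.37), followed without overlap by diaphragm (24.96 ± 1.45) and somites at E12.5 (12.1 ± 1.38), and lowest in iBAT (3.13 ± 0.469). Dll4 was highest in lung at E15.5 (26.9 ± 4.06), without overlap with lung at E12.5 (18.1 ± 3.15), and lowest in somites at E10.5 (9.12 ± 0.548). Jag1 was highest in trachea (61.7 ± 6.49) and lowest in iBAT (15.8 ± 3.24). Jag2 was highest in trachea (45.3 ± 1.27) and diaphragm (43.7 ± 3.61), which overlapped, and lowest in iBAT (8.996 ± 1.84). Hes1, the most widely used Notch target among the Hes repressors, was highest in trachea (119 ± 10.6), without overlap with lung at E15.5 (88.8 ± 4.01), and lowest in iBAT (18.7 ± 3.17). Hey1, a target used in the endothelium and other tissues, was highest in somites at E10.5 (35.2 ± 3.97), overlapping trachea (29.8 ± 4.84), and lowest in iBAT (7.26 ± 0.676). All these errors are SD, with n = 5 for iBAT and n = 4 elsewhere. Some of these places changed with the scale. TMM-scaled CPM per kilobase of exon was computed separately for the respiratory tissues with diaphragm and for somites with iBAT. Values of these sets therefore do not share a scale. Among somites and iBAT, Jag2 was lowest in somites at E10.5 (3.71, against 4.58 in iBAT). Among the other contexts it was highest in diaphragm (13.7, against 11 in trachea). iBAT stayed below both somite stages for Notch1, Notch2, Notch3, Dll1, Jag1, Hes1 and Hey1. Across the sets some members could not be ranked on this scale. Dll1 read 0.978 in lung at E12.5 and 1.61 in iBAT, and Jag1 6.56 and 8.04. Dll4 read 6.89 in lung at E15.5 and 7.14 in iBAT.

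**Figure D2:**
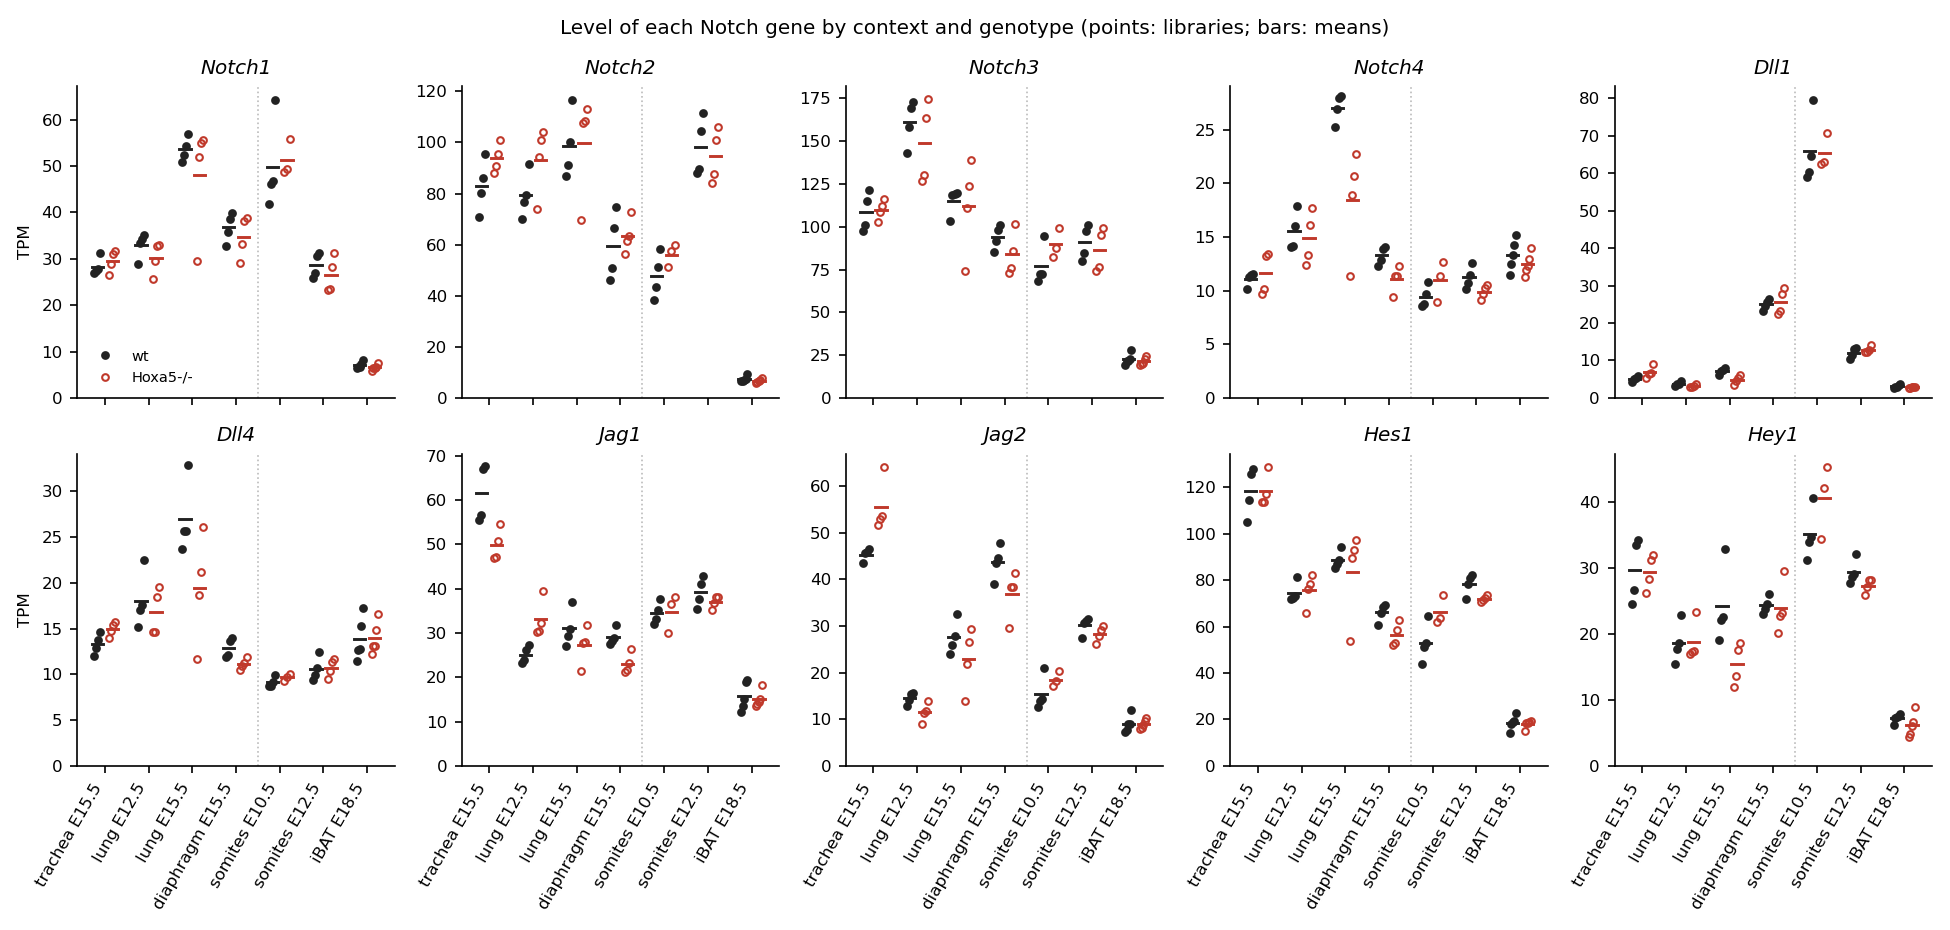
Level of each of the 10 genes in TPM in every library (vertical axis, separate linear scale per gene) by context (horizontal axis), with filled points for wt and open points for Hoxa5-/- libraries. A dotted line separates the respiratory tissues and diaphragm from somites and iBAT, which were sequenced differently. Dll1 stands at 59.1 to 79.5 TPM in wt somites at E10.5 and at 10.3 to 13.3 TPM at E12.5, and filled and open points lie close together in most panels.

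Promoter sequence was read for Dll1, the member with the largest difference between stages of 1 tissue, and for Dll4 and Notch4, the endothelial pair. The sequences are from RefSeq on the GRCm38.p6 build, which differs from the GRCm39 build of the counts, and each shows the 250 bases before an annotated transcription start, 5′ to 3′ on the strand of the gene. Of the 10 members, 8 matched an entry, with 9 windows because Dll1 has 2. Hes1 and Hey1 had no entry. Capitals mark matches on either strand to the Hes/Hey site CACGCG, the N-box CACNAG, the E-box CACGTG or the RBPJ core TGGGAA.
Dll1, first window, chr17:15375824-15376073, minus strand: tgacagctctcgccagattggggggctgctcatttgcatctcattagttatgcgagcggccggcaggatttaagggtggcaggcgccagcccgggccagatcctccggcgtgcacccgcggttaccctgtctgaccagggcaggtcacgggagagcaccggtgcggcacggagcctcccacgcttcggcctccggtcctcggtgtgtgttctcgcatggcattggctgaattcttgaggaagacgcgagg
Dll1, second window, chr17:15376933-15377182, minus strand: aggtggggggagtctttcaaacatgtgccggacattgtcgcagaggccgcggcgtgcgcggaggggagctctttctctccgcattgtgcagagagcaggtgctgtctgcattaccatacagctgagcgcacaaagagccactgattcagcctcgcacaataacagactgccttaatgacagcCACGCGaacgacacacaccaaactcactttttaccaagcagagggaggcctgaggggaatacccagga
Dll4, chr2:119325534-119325783, plus strand: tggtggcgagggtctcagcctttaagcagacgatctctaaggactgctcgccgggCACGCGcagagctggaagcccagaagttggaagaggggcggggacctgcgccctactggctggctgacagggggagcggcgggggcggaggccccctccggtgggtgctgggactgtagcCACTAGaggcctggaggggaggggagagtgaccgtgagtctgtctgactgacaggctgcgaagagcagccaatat
Notch4, chr17:34564045-34564294, plus strand: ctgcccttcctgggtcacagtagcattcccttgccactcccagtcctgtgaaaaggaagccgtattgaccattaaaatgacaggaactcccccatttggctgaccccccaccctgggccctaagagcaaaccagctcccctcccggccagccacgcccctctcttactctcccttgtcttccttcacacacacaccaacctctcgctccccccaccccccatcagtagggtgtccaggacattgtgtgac
Over the full windows, which run on for 50 bases past the start, CACGCG stood in 5 of the 9 member windows, those of Dll1, Dll4, Jag1, Jag2 and Notch2, and in 9.27% of all 32851 windows. CACNAG stood in 5 of 9, those of Dll1, Dll4, Notch1, Notch2 and Notch3, and in 42.5% of all windows. TGGGAA, its longer form GTGGGAA, which contains it, and CACGTG stood in 0 of 9, and in 25.6%, 6.38% and 7.15% of all windows. The Dll4 window thus shows 1 CACGCG and 1 CACNAG, and the Notch4 window shows none of the motifs searched. The member windows were 55.7% to 86% GC, against a median of 52.7% over all windows, so the shares are not matched for base composition. These are letter matches and not measured binding.

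Whether the loss of Hoxa5 altered the pathway was asked within each context, with edgeR's quasi-likelihood test on the counts. A gene was called when its Benjamini-Hochberg adjusted p over all genes tested was below 0.05 and its change at least 1.5-fold. Of the 70 member differences (10 genes in 7 contexts), 0 were called. The count at an unadjusted p below 0.05 was 16 of 70, with 3, 3, 4, 5, 1, 0 and 0 in trachea, lung at E12.5, lung at E15.5, diaphragm, somites at E10.5, somites at E12.5 and iBAT, where the share over all genes was 6.70%, 8.01%, 6.32%, 13%, 12.7%, 3.24% and 2.47%, and DESeq2 also called 0, with 2 of 70 past its adjusted p but under the fold minimum. The log2 differences lay between -0.55 and 0.42, and all 70 of the 95% intervals lay within 2-fold either way, 63 of them within 1.5-fold, with outermost bounds of -0.94 and 0.82. Calls were rare among all genes tested as well, at 0.0156% in trachea, 0.0798% in lung at E12.5, 0.124% in lung at E15.5, 0.594% in diaphragm, 0.0215% in somites at E10.5, 0.00529% in somites at E12.5 and 0.00657% in iBAT, so that 0 of 10 is near that background. The groups did not overlap for 2 members in trachea, against 3.88% of all genes tested there, for 1 in lung at E12.5 (5.45%), for 3 in lung at E15.5 (4.38%), for 3 in diaphragm (8.03%), and for 0 in somites at E10.5 (8.16%), somites at E12.5 (2.66%) and iBAT (0.309%).

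**Figure D3:**
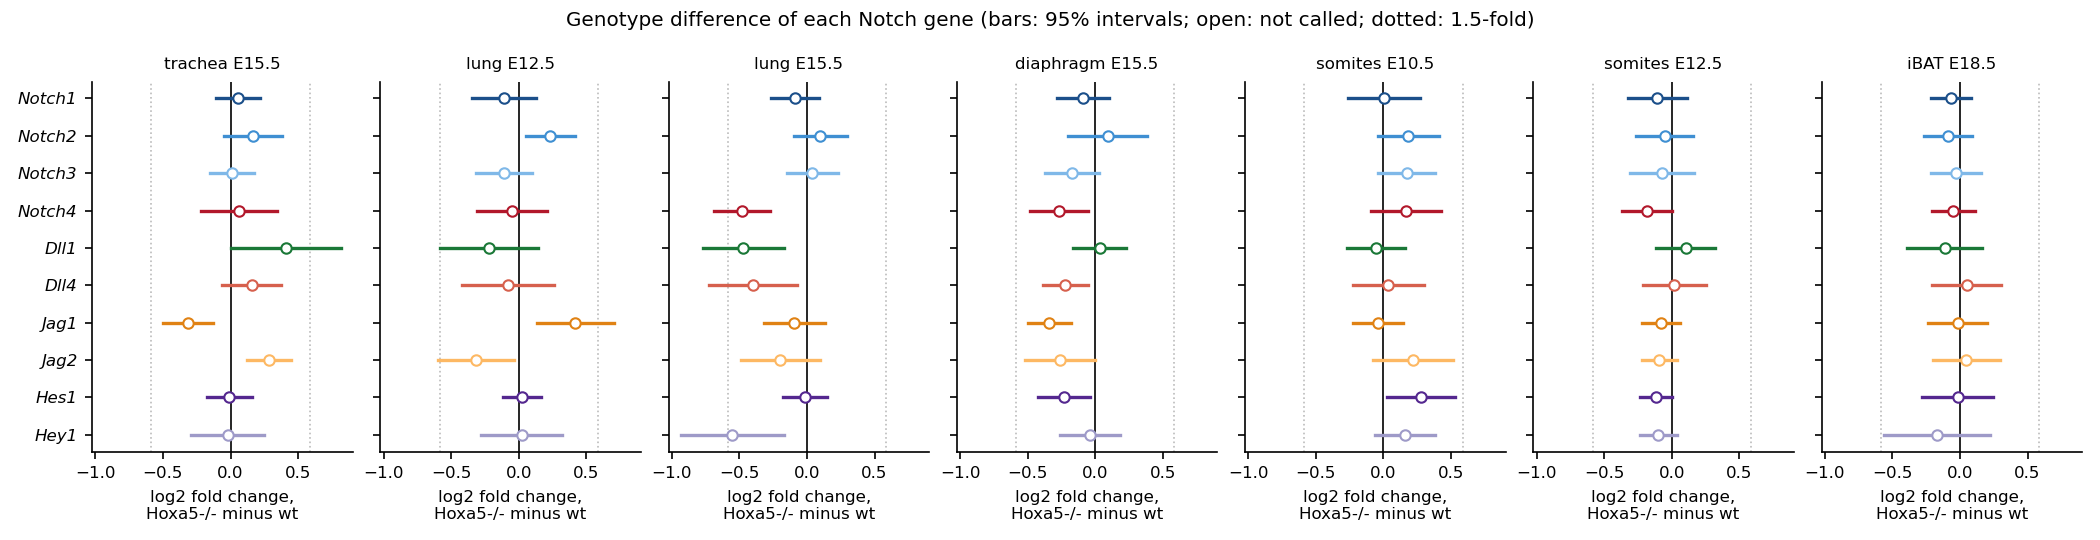
Log2 difference of Hoxa5-/- from wt libraries (horizontal axis) for the 10 genes in each of the 7 contexts, from edgeR's quasi-likelihood fit, with 95% confidence intervals as bars. Open points mark differences that were not called, which is all 70. The points lie between -0.55 and 0.42.

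In lung at E15.5 the members with the lowest values in Hoxa5-/- libraries were Notch4, Dll1, Dll4 and Hey1. None passed the test. Notch4 read 58.6, 56.7, 58.2 and 52.6 CPM in the wt libraries and 42.7, 38.5, 46.4 and 34.0 in the Hoxa5-/- libraries, so the groups did not overlap. Its log2 difference was -0.48 (SE 0.09, adjusted p = 0.145 by edgeR). DESeq2 gave an adjusted p of 0.000658 and the edgeR fit with a replicate block 0.0101, with the change still under 1.5-fold. Within the receptors of each library, which needs no scaling between libraries, Notch4 held 8.05% to 10.1% in wt and 5.88% to 7.67% in Hoxa5-/- lung at E15.5. Dll1 read 8.68, 7.88, 8.17 and 6.75 CPM in wt and 6.70, 4.69, 5.75 and 5.61 CPM in Hoxa5-/- libraries, a narrow gap, with a log2 difference of -0.47 (SE 0.13, adjusted p = 0.441 by edgeR). Hey1 read 16.1, 19.3, 27.7 and 18.7 CPM in wt and 11.3, 15.4, 14.5 and 14.5 CPM in Hoxa5-/- libraries, with a log2 difference of -0.55 (SE 0.17, adjusted p = 0.517 by edgeR). Its wt group was widened by replicate 3, without which the difference was -0.36. Dll4 read 23.5, 25.8, 32.7 and 25.5 CPM in wt and 18.4, 20.6, 25.5 and 16.8 CPM in Hoxa5-/- libraries, which overlapped, with a log2 difference of -0.40 (SE 0.15, adjusted p = 0.672 by edgeR, and 0.0444 with the replicate block). Without Hoxa5-/- replicate 4, the library that stood apart, the log2 differences were -0.40 for Notch4, -0.46 for Dll1, -0.31 for Dll4 and -0.56 for Hey1, again not called.

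Other values moved beside these. The 10 endothelial markers were all lower in Hoxa5-/- lung at E15.5, with a median log2 difference of -0.36, against -0.0063 over all genes tested, and 0 of the 10 were called. Their summed level was 1370 to 1642 TPM in wt and 742 to 1270 TPM in Hoxa5-/- libraries, the lowest being replicate 4 with the high ribosomal RNA and the other 3 at 1164 to 1270 TPM. On the CPM scale it was 1543 to 1854 in wt and 1208 to 1406 in Hoxa5-/- libraries. The 5 lymphatic endothelial markers summed to 176 to 223 CPM in wt and 105 to 111 CPM in Hoxa5-/- libraries, and 2 of them were called lower. The 5 arterial endothelial markers summed to 216 to 245 CPM in wt and 215 to 243 CPM in Hoxa5-/- libraries. Of these arterial markers 2 were lower, with a median log2 difference of 0.12 and 0 called. The part of these cell types in the Notch4 and Dll4 values was not tested, and in bulk tissue fewer cells of a type and less RNA per cell cannot be told apart.

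In diaphragm, Jag1 was the member nearest to the threshold. It read 48.6, 49.0, 43.0 and 46.0 CPM in wt and 37.0, 40.7, 34.3 and 35.4 CPM in Hoxa5-/- libraries, without overlap, and its log2 difference was -0.34 (SE 0.07, adjusted p = 0.0805 by edgeR). Under DESeq2 its adjusted p was 0.00234 and with the replicate block in edgeR 0.0153, with the change still under 1.5-fold. Hepatocyte and distal lung epithelium markers varied between the diaphragm libraries, and without wt replicate 3, the highest for the lung markers, Jag1 was at -0.37 (adjusted p = 0.0701 by edgeR). Notch4 (29.5 ± 2.52 CPM in wt and 24.5 ± 2.67 in Hoxa5-/-, SD, n = 4 in each) and Dll4 (13.7 ± 0.681 and 11.7 ± 0.400 CPM) also did not overlap, with log2 differences of -0.27 and -0.22 and edgeR adjusted p of 0.271 and 0.240. The 10 endothelial markers were again all lower, with a median log2 difference of -0.39 and 0 called, and summed to 510 to 652 CPM in wt and 388 to 511 CPM in Hoxa5-/- libraries. Of the arterial endothelial markers 3 of 4 tested were lower, with a median of -0.33 and 0 called. Of the lymphatic ones 2 of 5 were lower, with a median of 0.16 and 0 called. All 6 mural cell markers were lower as well, with a median of -0.61 and 0 called, and 2 of the 4 smooth muscle markers were called lower. All 5 epithelial markers were lower, with a median of -1.44 and 0 called, summing to 17.5 to 192 CPM in wt and 10 to 61 CPM in Hoxa5-/- libraries. Of the neural crest and glia markers 4 of 5 were lower and 2 called, and of the neural markers 2 of 3 tested were called lower. Their part in the Jag1, Notch4 and Dll4 values was not tested. Jag2 and Hes1 had log2 differences of -0.26 and -0.23 with overlapping groups, that of Jag2 being -0.16 without Hoxa5-/- replicate 3, and Dll1, which holds 22.6% of ligand TPM in wt diaphragm, read 23.1 to 26.5 TPM in wt and 22.3 to 29.4 TPM in Hoxa5-/- libraries.

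In trachea the Jagged ligands had values in opposite directions. Jag1 read 100, 87.3, 85.7 and 102 CPM in wt and 82.4, 71.0, 71.6 and 77.0 CPM in Hoxa5-/- libraries, with a log2 difference of -0.32 (SE 0.08, adjusted p = 0.641 by edgeR). Jag2 read 82.3, 80.2, 84.3 and 83.1 CPM in wt and 115, 96.4, 94.3 and 96.0 CPM in Hoxa5-/- libraries, with a log2 difference of 0.29 (SE 0.07, adjusted p = 0.618 by edgeR). Neither pair of groups overlapped and neither passed the test. As shares of ligand TPM within each library, Jag1 held 46.3% to 51.2% in wt and 38.7% to 39.6% in Hoxa5-/- trachea, and Jag2 held 34.7% to 38.0% and 41.3% to 45.8%, so Jag1 was the most abundant ligand in the 4 wt libraries and Jag2 in the 4 Hoxa5-/- libraries. The endothelial markers were lower for 5 of 10 there, with a median of -0.0083, and the 4 smooth muscle markers were all lower, with a median of -0.35 and 0 called. In lung at E12.5 Jag1 was higher in Hoxa5-/- libraries, with 39.2 ± 3.18 CPM in wt and 52.5 ± 11 in Hoxa5-/- (SD, n = 4 in each), a log2 difference of 0.42 (SE 0.13, adjusted p = 0.407 by edgeR). Replicate 1, which carried the high blood markers, read 69.0 CPM, and without it the log2 difference was 0.26. All 10 endothelial markers were lower in Hoxa5-/- lung at E12.5 too, with a median of -0.15 and 0 called. Notch4 and Dll4 had log2 differences of -0.051 and -0.078 there, with overlapping groups.

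In somites at E10.5 the median over the 10 members was 0.16, no group was separate, and Hes1 read 31.03 ± 3.63 CPM in wt (n = 4) and 37.6 ± 3.65 CPM in Hoxa5-/- (n = 3, both SD), with a log2 difference of 0.28 (SE 0.11, adjusted p = 0.391 by edgeR). That context turned on 1 library. Without wt replicate 3 the number of all genes called went from 4 to 386, and Notch3, Jag2 and Hes1 had log2 differences of 0.26, 0.38 and 0.36 with edgeR adjusted p of 0.0358, 0.0252 and 0.0436, all under the fold minimum and therefore not called. In somites at E12.5 and in iBAT, 0 members had an unadjusted p below 0.05 under edgeR. The mutant somites at E10.5 kept the Dll1 level, at 62.5 to 70.7 TPM against 59.1 to 79.5 TPM in wt.

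Whether the genotype difference itself varied between contexts was tested as an interaction for 5 pairs of contexts. Of 50 member tests, 0 were called by edgeR and 0 by DESeq2, with 16 at an unadjusted p below 0.05 under edgeR. These were 3 between the lung stages, 4 between the somite stages, 5 for trachea against lung, 2 for diaphragm against lung and 2 for diaphragm against trachea, where 5.25%, 14.3%, 5.04%, 8.46% and 9.07% of all genes reached that threshold. The share called over all genes tested was 0.0267% between the lung stages, 0.0147% between the somite stages, 0.00502% for trachea against lung, 0.688% for diaphragm against lung and 0.439% for diaphragm against trachea. The furthest value was that of Dll1 in trachea against lung at E15.5, at 0.88 on the log2 scale (SE 0.23, adjusted p = 0.451 by edgeR), with Dll1 at 4.28 to 5.74 TPM in wt and 5.43 to 8.93 TPM in Hoxa5-/- trachea. Jag2 in diaphragm against trachea stood at -0.52 (adjusted p = 0.162 by edgeR and 0.0356 by DESeq2), and Dll4 there at -0.36 (adjusted p = 0.224 by edgeR and 0.0495 by DESeq2). A wider list of 41 pathway genes, made of fringe and O-glycosylation enzymes, inhibitory or non-canonical ligands, proteases, ligand endocytosis and receptor sorting genes, the nuclear complex and other Hes/Hey targets, gave the same count for genotype. Of its 260 tests 0 were called by edgeR, 21 had an unadjusted p below 0.05, and DESeq2 called 1, Neurl1b in diaphragm, a ubiquitin ligase that acts on the ligands, at -0.66.

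The contexts were then compared in the wt libraries, with 6 comparisons within the 2 sequencing sets. Between the lung stages, 4 members rose from E12.5 to E15.5 and 0 fell, against 15.4% of all genes tested called higher and 9.15% called lower. Dll1 went from 3.26, 3.61, 3.74 and 4.39 TPM at E12.5 to 7.96, 7.15, 7.50 and 6.196 TPM at E15.5, without overlap (log2 0.91, SE 0.12). Jag2 rose by 0.89 (SE 0.10), Notch4 by 0.76 (SE 0.08) and Notch1 by 0.67 (SE 0.06) on the log2 scale. Notch3 was at -0.52 with an edgeR adjusted p of 0.000137 and did not reach the fold minimum. The targets Hes1 and Hey1 were at 0.21 and 0.34. The endothelial markers rose too, 9 of 10 called with a median of 1.01, as did 5 of 5 epithelial and 4 of 6 mural cell markers, and their part in the member values was not tested. In the Hoxa5-/- libraries Notch4 was at 0.34 between the stages and was not called, and the difference between genotypes was itself not called (log2 -0.43, adjusted p = 0.930 by edgeR). Of the wider list, 8 of 37 rose and 1 fell. Those that rose included Lfng, a fringe enzyme (1.63), Heyl (1.64), the feedback inhibitor Nrarp (1.401) and Neurl1b (1.70), and Dtx1, a ubiquitin ligase that binds the receptors, fell by 1.13.

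Between the somite stages, 2 members rose from E10.5 to E12.5 and 2 fell, against 24.1% of all genes called higher and 18.4% called lower. Dll1 read 60.4, 59.1, 79.5 and 64.5 TPM at E10.5 and 11.6, 13.3, 12.9 and 10.3 TPM at E12.5, and fell by 2.51 on the log2 scale (SE 0.10). Notch1 read 41.9, 46.2, 64.3 and 46.7 TPM at E10.5 and 25.9, 27, 31.3 and 30.5 TPM at E12.5, and fell by 0.85 (SE 0.11). Both ranges were apart. Notch2 read 38.5, 43.6, 58.3 and 51.2 TPM at E10.5 and 88.0, 89.5, 104 and 111 TPM at E12.5 and rose by 0.98 (SE 0.11), and Jag2 read 12.53, 13.8, 20.9 and 14.4 TPM and then 30.6, 31.1, 31.6 and 27.5 TPM and rose by 0.91 (SE 0.12). The 4 calls were also made in the Hoxa5-/- libraries, where Dll1 was at -2.36. Hes1 and Hey1 were at 0.50 and -0.32, under the fold minimum. Of the wider list 11 of 40 rose and 8 fell. Hes5 fell by 6.81 and Dll3, an inhibitory ligand of the segmentation clock and of neural progenitors, fell by 5.59, from 59.4 ± 13.6 to 1.28 ± 0.2497 TPM (SD, n = 4 in each). Hes3 was at least 44.0-fold lower, with 127 counts over the group at E10.5 and 0 at E12.5, taken against a floor of 3 counts over the group. All 8 neural tube and neuron markers fell between these stages, with a median of -4.00, and at E12.5 they summed to 193 to 474 TPM in wt. Of 6 presomitic and somite markers tested 3 fell and 1 rose, all 5 skeletal muscle markers rose, and 6 of 10 endothelial markers rose. The part of neural tissue in the Dll1, Dll3, Hes3 and Hes5 values was not tested.

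At E15.5, trachea and lung differed for 5 members, 2 higher and 3 lower in trachea, against 20.1% and 10.1% of all genes. Notch4 read 11.5, 11.3, 10.1 and 11.5 TPM in trachea and 28.1, 26.9, 27.95 and 25.3 TPM in lung, a log2 difference of -1.32 (SE 0.07). Dll4 read 12.9, 12, 14.6 and 13.8 TPM in trachea and 23.6, 25.7, 32.9 and 25.6 TPM in lung, a difference of -1.05 (SE 0.12), and Notch1 differed by -0.96 (SE 0.06). Jag1 read 67.7, 56.6, 55.6 and 67.0 TPM in trachea and 30.8, 29.3, 37.1 and 27.1 TPM in lung, a difference of 0.95 (SE 0.11), and Jag2 differed by 0.68 (SE 0.09). In the Hoxa5-/- libraries Dll4 was at -0.52 and not called, and Hey1, at 0.26 in wt, was called at 0.77, and neither difference between genotypes was itself called (adjusted p = 0.682 and 0.956 by edgeR). In wt, Notch4, Dll4 and Notch1 were thus lower and the Jagged ligands higher in trachea. All 10 endothelial markers were lower in trachea, with a median of -1.53. Of the 5 arterial markers 2 were called higher and 1 lower, and of the 5 lymphatic markers also 2 and 1. The 3 basal and ciliated airway cell markers were higher, with a median of 5.31. Called higher as well were 5 of 5 skeletal muscle, 4 of 5 neural crest and glia, 4 of 4 neuroendocrine and 2 of 3 cartilage markers. The part of these cell types in the member values was not tested. Of the wider list 9 of 39 were higher in trachea and 4 lower, among them Dtx1 (2.56) and the gamma-secretase subunit Aph1b (1.32) higher and the fringe enzyme Mfng (-1.78) lower.

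Diaphragm was set apart by Dll1. It read 23.1, 26.5, 24.6 and 25.6 TPM there, against 6.196 to 7.96 TPM in lung at E15.5 and 4.28 to 5.74 TPM in trachea, log2 differences of 2.10 (SE 0.09) and 2.58 (SE 0.11). Every diaphragm library was above every library of both other tissues. Against lung, Jag2 was also higher (0.97, SE 0.12) and Notch4 (-0.72, SE 0.07) and Dll4 (-0.76, SE 0.11) were lower, which made 2 members higher and 2 lower, against 20.9% and 15.6% of all genes. In the Hoxa5-/- libraries Notch4 was at -0.54 against lung and not called, and Hey1, at 0.32 in wt, was called at 0.80. Neither difference between genotypes was itself called (adjusted p = 0.819 and 0.485 by edgeR). Against trachea, Notch1 was higher (0.67, SE 0.07) and Jag1 lower (-0.79, SE 0.08), which made 2 higher and 1 lower, against 14.1% and 18.4% of all genes. The call of Notch1 did not hold when libraries were scaled by total counts (0.45), and in the Hoxa5-/- libraries it was at 0.54. Total counts added calls for Notch2 against lung (-0.66) and Hes1 against trachea (-0.77), and Hes1 was also called against trachea in the Hoxa5-/- libraries (-0.76). With total counts, a scaling chosen after seeing the data, the share of called genes that were higher went from 57.3% to 40.5% against lung and from 43.5% to 29.2% against trachea, and the median over all genes went from -0.0099 to -0.25 and from -0.038 to -0.26. All 5 skeletal muscle markers were higher in diaphragm in both comparisons, and the 10 endothelial markers were all lower than in lung, with a median of -1.39. Against lung, 5 of 5 neural crest and glia, 5 of 7 presomitic and somite, 3 of 3 neural and 3 of 3 hepatocyte markers tested were also called higher. Against trachea, 1 of 4 neural markers was called higher and 3 lower, and 4 of 8 presomitic and somite markers higher and 1 lower. The part of these cell types in the member values was not tested. Of the wider list 7 of 37 were higher and 4 lower than in lung, with the ligand-like Dlk1 (1.89) and Hes6, which counteracts Hes1 (1.31), higher and the coactivator Maml3 (-2.19) lower, and 6 of 39 were higher and 8 lower than in trachea.

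Brown fat at E18.5 differed from somites at E12.5 for 8 members, 2 higher and 6 lower, against 31% and 35.3% of all genes. These contexts differ in tissue, stage and the share of RNA held by a few genes, and the scale matters more here than elsewhere. Notch4 and Dll4 were higher in iBAT, by 1.45 (SE 0.09) and 1.598 (SE 0.13) on the log2 scale with TMM, while their TPM were close: Notch4 read 11.5 to 15.2 TPM in iBAT and 10.2 to 12.6 TPM in somites, and Dll4 11.5 to 17.2 TPM and 9.39 to 12.4 TPM. With total counts the differences were 0.81 and 0.95, and both calls held. The median over all genes was -0.16 with TMM, -0.81 with total counts and -1.37 as a ratio of TPM, and the share of called genes that were higher went from 46.7% with TMM to 28.8% with total counts. Notch4 and Dll4 lay above the median over all genes on each scale, and their rank among all genes was not computed. Notch2 was furthest lower, at 88.0 to 111 TPM in somites and 6.56 to 9.25 TPM in iBAT, a difference of -2.54 (SE 0.10) with TMM. Notch1, Notch3, Dll1, Hes1 and Hey1 were lower by between -0.73 and -0.86 with TMM, and Jag1 and Jag2, at -0.12 and -0.55, were not called with TMM and were called lower with total counts (-0.76 and -1.19). The endothelial markers were called higher in iBAT for 9 of 10, with a median of 1.58. Of the 5 arterial markers 3 were called higher and 2 lower, and of 4 lymphatic markers tested 1 higher and 2 lower. Mural cell markers were called higher for 4 of 6 and lower for 0, with a median of 2.03, while Notch3 was lower. The neural tube markers were lower for 4 of 4 tested. The part of these cell types in the member values was not tested. Of the wider list 6 of 37 were higher and 20 lower, and all 6 genes of the nuclear complex (Rbpj, Maml1, Maml2, Maml3, Snw1 and Spen) were lower.

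**Figure D4:**
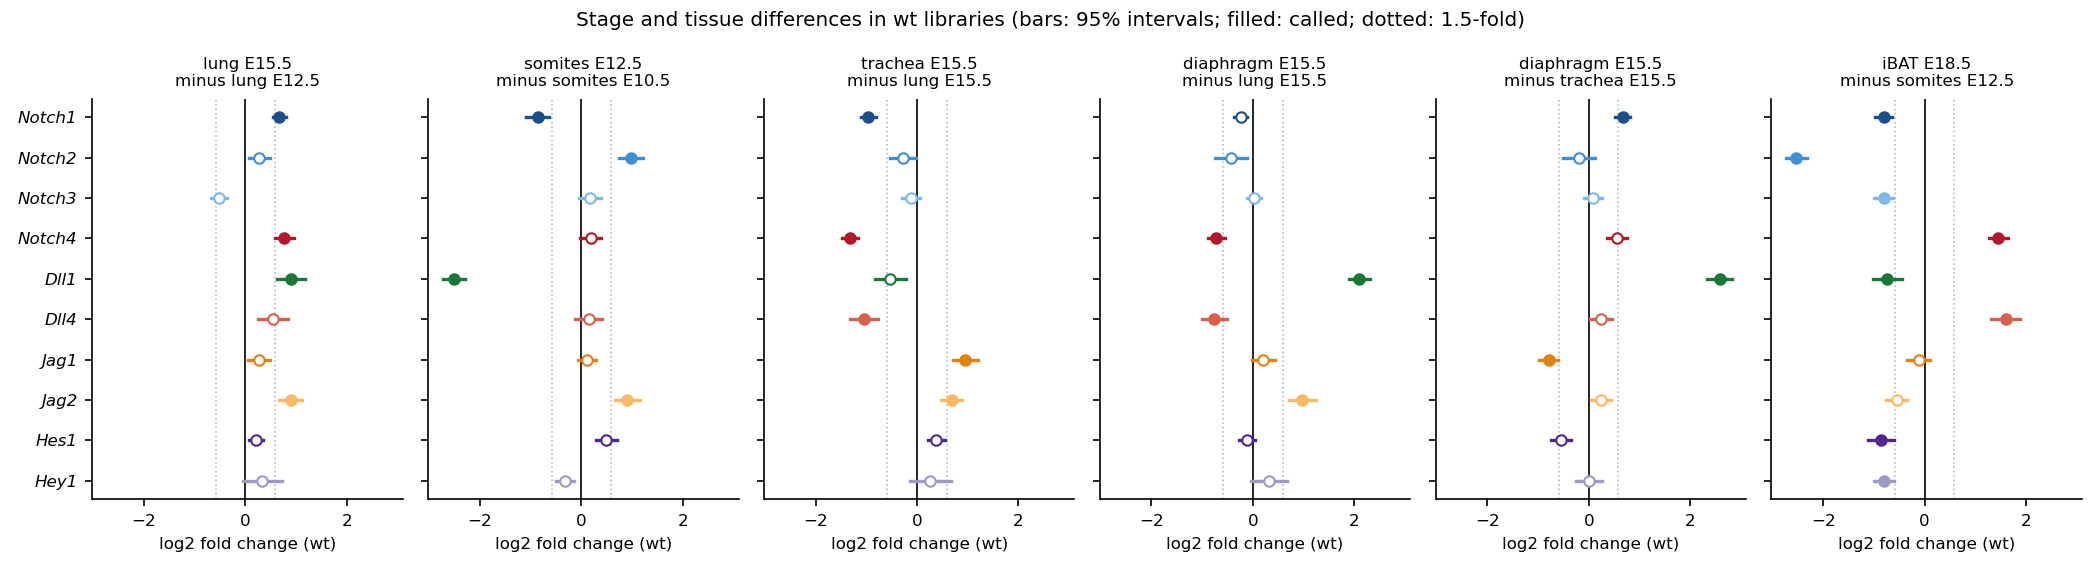
Log2 difference between wt contexts (horizontal axis, first named context minus second) for the 10 genes in 6 comparisons, from edgeR's quasi-likelihood fit with TMM scaling, with 95% confidence intervals as bars and filled points for called differences. Dll1 lies at -2.51 between the somite stages and at 2.10 and 2.58 in diaphragm, and Notch4 and Dll4 lie on the same side in every comparison.

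Notch4 and Dll4 followed each other and the endothelial markers across libraries, though they did not follow the markers in every comparison of contexts. Over the 29 wt libraries the Pearson r of their log2(TPM + 1) values was 0.91, and 0.92 over the 24 outside iBAT. The r with the summed endothelial markers was 0.88 for Notch4 and 0.88 for Dll4 over the 29 wt libraries, 0.93 and 0.95 over the 16 of trachea, lung and diaphragm, and 0.70 and 0.75 over the 28 Hoxa5-/- libraries. These are descriptions, since the libraries share contexts and depth. Between the somite stages 6 of 10 endothelial markers were called higher, with a median of 0.72. Notch4 and Dll4 were at 0.19 and 0.15 there and not called. In diaphragm against trachea the marker median was 0.0078. Notch4 was at 0.56 there (adjusted p = 0.000613 by edgeR) and Dll4 at 0.25, neither of them called. Among 22802 genes, the genes whose wt pattern was most like that of Notch4 were Grap (r = 0.948), Arhgef15 (0.943) and Pcdh12 (0.94), and Grap and Pcdh12 were also among the 3 most like Dll4 (0.94 and 0.933). For Dll1 they were Btbd17 (0.978), A730046J19Rik (0.976) and Pax3 (0.962), for Jag1 Ndfip1 (0.955), Lrrc75b (0.944) and Phactr1 (0.943), and for Jag2 Adamts8 (0.961), Casz1 (0.961) and Ccser2 (0.96). Several of the closest values rested on the low iBAT level. Notch1 and Notch2 had an r of 0.86 over all 29 libraries and -0.17 over the 24 outside iBAT, and Notch2 and Hes1 had 0.95 and 0.68. For Notch1 the closest was Eml1 (0.982), for Notch2 Fat1 (0.993), for Notch3 Setd5 (0.992), for Hes1 Cnnm4 (0.982) and for Hey1 Igsf9b (0.966), over the 29 wt libraries in each case.

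**Figure D5:**
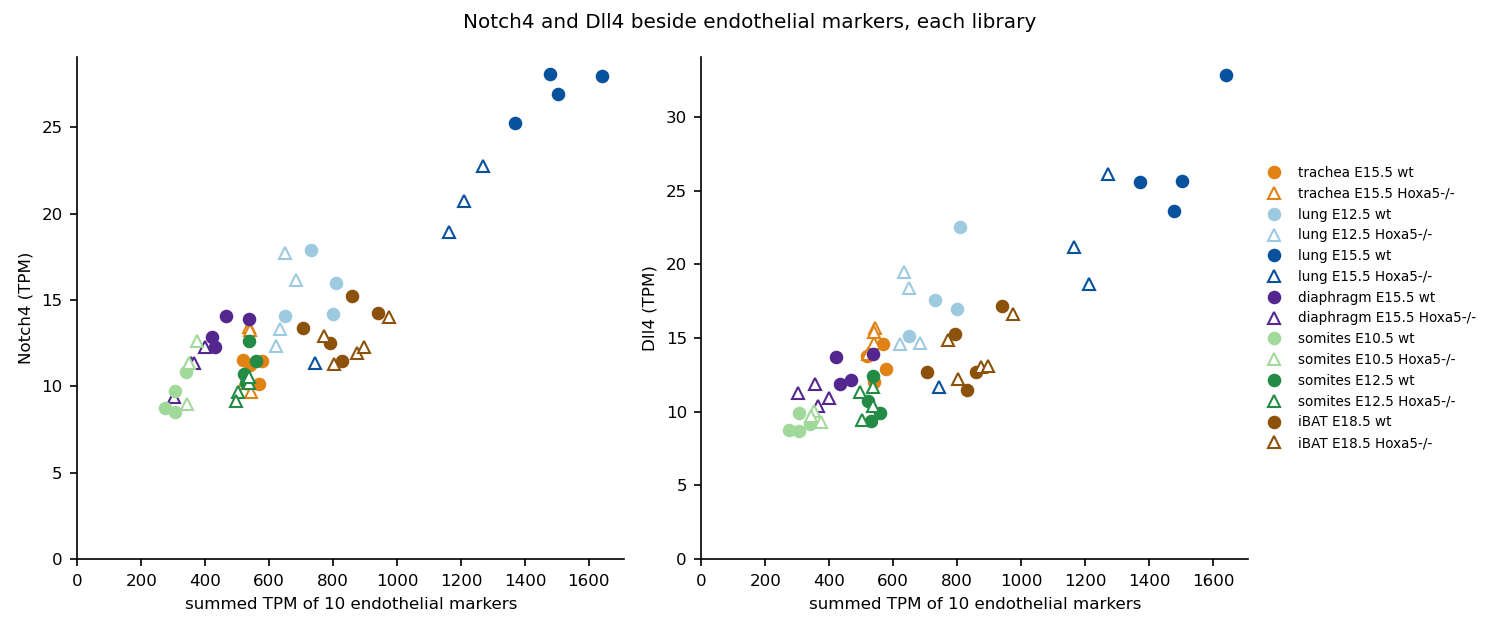
TPM of Notch4 (left) and Dll4 (right) on the vertical axis against the summed TPM of 10 endothelial markers on the horizontal axis, 1 point per library, coloured by context with filled points for wt and open points for Hoxa5-/-. Lung at E15.5 lies at the upper right, and its Hoxa5-/- libraries (742 to 1270 TPM of markers) lie to the left of and mostly below the wt libraries (1370 to 1642 TPM).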

How the data were processed

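Whole-tissue poly(A) RNA from 57 mouse samples was sequenced in 2 sets. The authors trimmed reads with Trim Galore, aligned them with STAR to GRCm39 and deposited raw counts per gene (featureCounts) and TPM. Recomputed TPM matched the deposited TPM. Groups and replicates came from the labels, and replicates are separate samples of a tissue. Here the counts were fitted with edgeR 4.0.16 in R 4.3.3 (TMM, quasi-likelihood test, 1 fit per comparison). Genes entered when 1 of the groups reached a mean of 1 TPM, and were called at a Benjamini-Hochberg adjusted p below 0.05 and at least 1.5-fold. DESeq2 1.42.0 was an alternative, as were other scalings, filters and single libraries left out. Likeness used log2(TPM + 1). The fit was tested on simulated data. Hoxa5 and the markers served as checks. Genes most like a member were the 3 with the highest r, and wider-list genes named are among the 6 with the largest called change. The members and lists were chosen with earlier results of these data known. Same-numbered replicates were checked for shared deviations: between wt trachea and lung at E15.5 all 4 numbers had r above 0.1 (0.100 to 0.429), so they were taken to pair there. In the other comparisons not every number was above 0.1, and they were not taken to pair. Between genotypes, the iBAT numbers had r of 0.073 to 0.189, and the diaphragm numbers 0.203, 0.294, 0.445 and -0.045. The values given are from fits without a replicate block. With the block, 5 members were likewise called in trachea against lung. The leading numbers shared by the names of iBAT libraries of both genotypes were used as an alternative block.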

Additional observations from a re-analysis of the deposited data

Results flagged for a closer look

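Of 260 groups of 4 or 5 libraries tested with Dixon's criterion, counting the TPM and the CPM of each member, 15 held a library far from the others, and chance gives about 1 in 20. Hoxa5-/- lung replicate 4 at E15.5, in which the 10 most abundant genes held 36.7% of TPM, was low in TPM for Notch1 (29.5) and Notch2 (69.5), and was flagged for neither on the CPM scale. Wt somite replicate 3 at E10.5 was high for Notch3 (94.5 TPM and 206.8 CPM) and for Jag2 (39.5 CPM). Hoxa5-/- lung replicate 1 at E12.5, with the high blood markers, was high in CPM for Jag1 (69.0) and Dll1 (4.71). Hoxa5-/- trachea replicate 1 was high for Jag2 (64.0 TPM and 115.3 CPM), and without it the log2 difference of Jag2 between genotypes in trachea was 0.21. Wt lung replicate 2 at E15.5 was low for Notch3 (103.4 TPM and 218.6 CPM), and Hoxa5-/- lung replicate 3 at E12.5 was high for Hey1 (23.3 TPM). In iBAT, wt replicate 5 was high for Notch2 (9.25 TPM), Hoxa5-/- replicate 4 was low for Hes1 (14.9 TPM) and Hoxa5-/- replicate 1 was high for Jag1 (41.9 CPM).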

How the results depend on the processing

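The count of 0 members called for genotype and for the difference in genotype effect held in all 121 genotype and 99 interaction fits, and DESeq2 called 1 gene of the wider list in diaphragm. Hoxa5 itself had an edgeR adjusted p of 0.0475 in trachea and 0.0459 in somites at E10.5. With 1 library left out it was called there in 0 of 8 and 1 of 7 fits, and in every such fit of the other contexts. In those 2 contexts a count of 0 members says little, because a difference larger than that of any member was missed. Without a fold minimum the members called between contexts were 9 for the lung stages, 6 for the somite stages and 7 for trachea against lung. They were 6 for diaphragm against lung, 6 for diaphragm against trachea and 9 for iBAT against somites. Over all genes this setting called 9107 of 18158 for the lung stages, 12518 of 19773 for the somite stages and 9584 of 19340 for trachea against lung. For diaphragm it called 11138 of 18984 against lung and 9669 of 19730 against trachea, and for iBAT against somites 15554 of 19369. The wider list gave 24 of 37 tested for the lung stages, 30 of 40 for the somite stages and 23 of 39 for trachea against lung. It gave 29 of 37 for diaphragm against lung, 24 of 39 for diaphragm against trachea and 34 of 37 for iBAT against somites. Leaving out each library in turn gave 4 to 5 members called for the lung stages, 5 to 6 for trachea against lung, 3 to 4 for diaphragm against trachea, 4 for each of the somite stages and diaphragm against lung, and 8 for iBAT against somites. The fit with a replicate block gave 0 members called for genotype in every context (Notch4 and Dll4 in lung at E15.5 and Jag1 in diaphragm passed its adjusted p but not the fold minimum), as did a block by the leading number of the iBAT names, and 4, 4, 5, 4, 3 and 9 in the context comparisons in the order of the text, the added member being Jag2 in iBAT (-0.63). It changed no other member call, and only in trachea against lung did all same-numbered libraries have r of deviations above 0.1. The order of the contexts was the same for 6 of 10 members by the median, and by CPM per kilobase for 2 of 10 within trachea, lung and diaphragm and for 9 of 10 within somites and iBAT, all but Jag2. Of the 30 most alike gene pairs, 4 were found again in the Hoxa5-/- libraries. Of 3110 member values under the alternatives, 147 had the other sign, none of them called. Of the 60 member differences between contexts, 4 lost their call and 3 gained one in the Hoxa5-/- libraries, and 1 lost and 4 gained one with total counts. Differences under 1.5-fold were not called by construction, the 2 sequencing sets cannot be told apart from their tissues, and cell types were not separated.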
